A study of Mus musculus with 23 samples.

Results

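The comparison described here set 3 RNA-seq libraries made from 500 mouse T cells against 3 made from 10000, over all 22488 genes of the count table, and 3 libraries from 1000 cells served as an intermediate input. These were 6 of the 23 libraries of the series (9 with the 1000-cell group), chosen by the number of cells given in their labels and by no measured value. The labels describe spleen T cells of mice of strain C57, aged 6 to 18 weeks, and the series' design names them CD3+ T cells. No treatment or genotype is given for any group, and cell number is the difference the labels state. They do not say whether the 3 libraries of a group came from separate mice, sorts or lysates, so every p-value measures the spread between these libraries, which may be technical. RNA was reverse transcribed from an oligo(dT) primer and made double-stranded, and the cDNA was cut and tagged with Tn5 transposase, in a method the submitters named EASY-RNAseq for small inputs. The question the design puts is how the measured transcriptome depends on the input.

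T cells carry the CD3 complex and a T cell receptor, and are released from the spleen together with B cells, antibody-secreting plasma cells, macrophages, granulocytes and red blood cells, each with abundant transcripts of its own. A B cell joins variable gene segments to make its heavy and light chains, its progeny keep that choice, and a plasma cell devotes much of its messenger RNA to that antibody. In bulk RNA, fewer cells of a type and less RNA per cell cannot be told apart.

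Assigned counts ranged from 2222347 to 2575103 per library at 500 cells, from 2363975 to 2715179 at 1000 and from 3401992 to 3627647 at 10000. The CD3 chains, which define the labelled cell type, were present at each input: Cd3e stood at 389.9, 452 and 411 CPM (counts scaled to a library total of 1000000 assigned counts) at 500 cells and 399.6, 425 and 461 CPM at 10000, and the groups overlapped. The replicates of 500 cells varied more than those of 10000. The common biological coefficient of variation, edgeR's estimate of relative spread between replicates, was 0.374 at 500 cells, 0.289 at 1000 and 0.141 at 10000.

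Of 13674 genes tested, 439 (3.21%) differed between 500 and 10000 cells (edgeR's quasi-likelihood test, Benjamini-Hochberg adjusted p under 0.05), and 2273 had an unadjusted p under 0.05. At 500 cells 102 genes (0.746%) were higher and 337 (2.46%) lower, and the median log2 fold change over all genes tested was 0.03. Of the higher genes 60 of 102 changed over 2-fold, with a median log2 fold change of 1.13, and antibody genes led them. Of the lower genes 32 of 337 changed over 2-fold, and their median was -0.52. The sizes are not comparable between the directions, since a gene with few counts must move further to be called: the higher genes had a median of 39.1 CPM and the lower genes 206. The CPM of the 2 groups did not overlap for 3047 of the genes tested (22.3%).

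The number of calls depended on each 10000-cell library and on how the spread was estimated. Without replicate 1, 2 or 3 of that group it was 149, 173 or 150, and it was 30 (7 higher, 23 lower) when all 4 T cell inputs shared one estimate of the spread. That shared fit holds 100-cell replicate 3, which stood apart from its group in its B cell, class II, neutrophil, erythroid and T cell genes. Without that library, an alternative added after seeing the data, the shared fit made 169 calls (25 higher, 144 lower), all among the 439. Of the 118 called genes named here or in the gene lists, 20 stayed called under each alternative that included them. They were Igha, Ighv1-9, 1 kappa variable gene, Jchain, Gm10800 and Gm21738 among the higher genes, and Myh9, Dync1h1, Macf1, Plec, Flna, Huwe1, Chd3, Chd4, Arid1a, Prpf8, Hnrnpl, Eef2, Ets1 and Il17ra among the lower.

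**Figure D1:**
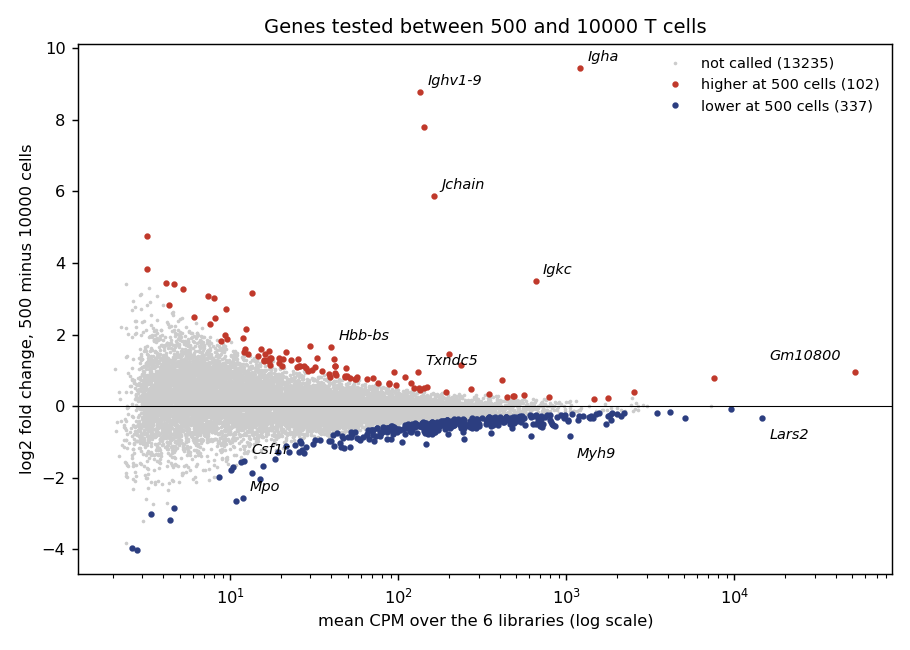
Each point is 1 of the 13674 genes tested, with its mean CPM over the 6 libraries on a log scale and its log2 fold change (500 minus 10000 cells). Red points (102) were higher and blue points (337) lower at an adjusted p under 0.05, and grey points (13235) were not called. Antibody genes stand at the top, apart from the rest, while the blue points form a band of small falls among well-counted genes.

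Antibody genes, those of IgA among them, headed the rises. Igha, the constant region of the IgA heavy chain, stood at 2471, 2429 and 2324 CPM in the 500-cell libraries, 2.54, 0.737 and 6.39 in the 1000-cell libraries and 1.95, 4.41 and 3.82 at 10000. Its log2 fold change from 10000 to 500 cells was 9.44 ± 0.11 (SE) (edgeR adjusted p = 7.8e-27). All 3 libraries of 500 cells were high and alike, and none of the other 6 exceeded 6.39 CPM. Jchain, which links IgA into dimers, stood at 358, 313 and 288 CPM at 500 cells against 6.69, 4.96 and 4.41 at 10000 (5.87 ± 0.18 (SE), edgeR adjusted p = 6.1e-18). Igkc, the constant region of kappa light chains, stood at 1205, 1233 and 1185 CPM against 99, 99.5 and 121 (3.49 ± 0.08 (SE), edgeR adjusted p = 3.8e-20). IgM did not follow. Ighm, the IgM constant region, was counted at 844, 928 and 901 CPM at 500 cells and 823, 784 and 904 at 10000, with a log2 fold change of 0.08 ± 0.06 (SE) (edgeR adjusted p = 0.58) and overlapping groups.

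**Figure D2:**
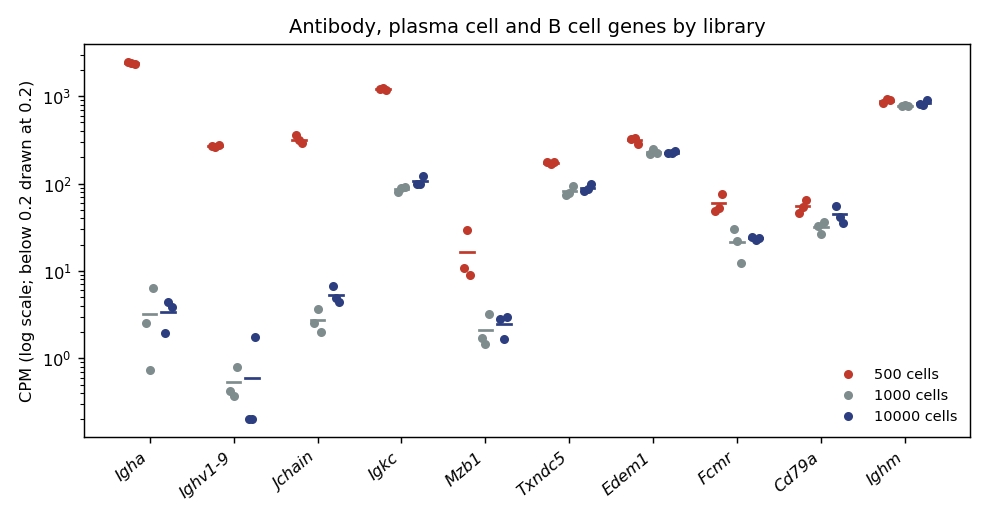
Points give the CPM of each library on a log scale, short lines the mean of 3 libraries, in red for 500, grey for 1000 and blue for 10000 cells. The 3 red points of Igha (2324 to 2471 CPM), Ighv1-9, Jchain and Igkc lie far above the grey and blue ones, whereas those of Cd79a and Ighm overlap the blue points.

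The heavy chain counts of the 500-cell libraries fell on a single variable gene, Ighv1-9. It stood at 269, 263 and 277 CPM at 500 cells, against 0, 0 and 1.76 at 10000 and 0.423, 0.368 and 0.799 at 1000 (log2 fold change 8.78 ± 0.32 (SE) against 10000, edgeR adjusted p = 3.8e-16). Over the 3 libraries these were 1895 counts against 6, and all 6 came from 10000-cell replicate 3, so that the fitted fold has no meaning as a bound without it. Its 5′ sequence is shown beside that of Ighv1-77, the most similar of 112 other heavy chain variable genes with a transcript, because the reading depends on telling such genes apart. Both are the first 120 bases of the GENCODE M21 transcript (GRCm38), 5′ to 3′, with the positions that differ in capitals.
Ighv1-9: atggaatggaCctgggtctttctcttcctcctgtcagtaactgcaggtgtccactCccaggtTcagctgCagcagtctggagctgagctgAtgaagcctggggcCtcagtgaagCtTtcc
Ighv1-77: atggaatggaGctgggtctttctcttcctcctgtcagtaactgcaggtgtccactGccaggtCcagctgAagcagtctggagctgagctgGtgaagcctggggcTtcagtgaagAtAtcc
The transcripts are 90.9% identical along their alignment, and no other heavy chain variable gene reached 95%. Ighv1-77 averaged 0.300 CPM at 500 cells and 0.282 at 10000, so the counts were assigned to Ighv1-9 and not to its nearest relative.

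Ighv1-9 held 77.0% of all heavy chain variable counts in 500-cell replicate 1 (95% Wilson interval 73.9% to 79.8%), 77.8% in replicate 2 (74.9% to 80.5%) and 81.7% in replicate 3 (78.8% to 84.3%). These intervals cover counting error only. In the 10000-cell libraries the most counted heavy chain variable gene held 4.58% to 7.57%, and at 1000 cells 8.4% to 9.26%. Apart from Ighv1-9, 138 to 193 heavy chain variable counts remained in each 500-cell library, against 185 to 234 at 10000. These are counts not scaled for depth, and the library totals were 2222347 to 2575103 and 3401992 to 3627647. They therefore do not show fewer remaining counts at 500 cells. The kappa chain repeated the pattern. In each 500-cell library the same kappa variable gene held 74.4% to 75.4% of kappa variable counts, and in the 10000-cell libraries it held 1.63% to 2.36%. The 3 libraries of 500 cells thus shared 1 heavy and 1 kappa variable gene as their leading pair, at nearly equal levels.

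T cell receptor variable genes showed no such dominance. The most counted alpha variable gene held 5.63% to 10.8% of alpha variable counts at 500 cells and 5.77% to 7.28% at 10000. For the beta chain the shares were 12.9% to 15.5% and 13.9% to 16.1%. Of 11 alpha variable genes tested 0 were called, and of 17 beta variable genes 1 was, Trbv14, which stood at 0.447, 0.777 and 0.900 CPM at 500 cells against 7.25, 4.13 and 6.76 at 10000 (-3.03 ± 0.85 (SE), edgeR adjusted p = 0.0497). Its call was lost when any single library was left out.

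**Figure D3:**
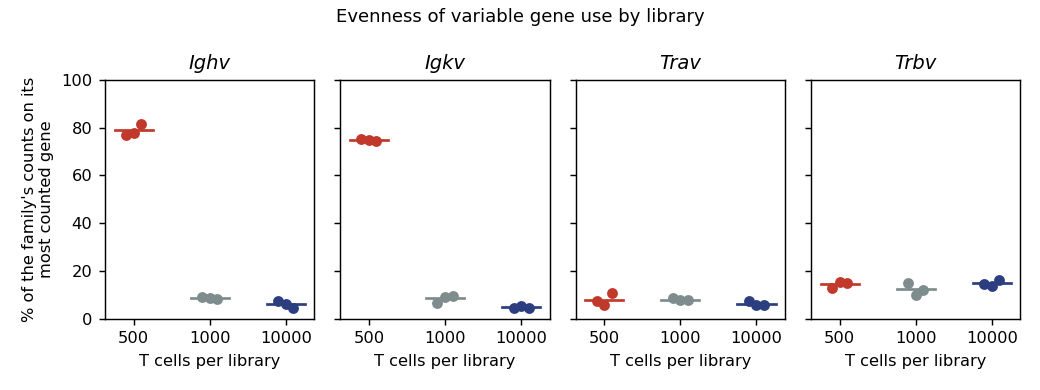
For heavy chain (Ighv), kappa (Igkv), T cell receptor alpha (Trav) and beta (Trbv) variable genes, each point is the percent of the family's counts held by its most counted gene in 1 library, and lines are means of 3. The 500-cell libraries reach 74.4% to 81.7% in both antibody families and stay at or below 15.5% in both T cell receptor families.

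Genes of the plasma cell program and of antibody folding rose only in part. Of 16 tested members of the plasma cell list 7 were higher and 1 lower, with a median of 0.48, and the 7 include Igha and Jchain. Mzb1, an endoplasmic reticulum cochaperone of B cells and plasma cells, was counted at 10.7, 29.1 and 9.0 CPM at 500 cells and 2.79, 1.65 and 2.94 at 10000 (2.70 ± 0.56 (SE), edgeR adjusted p = 0.0061), with replicate 2 well above the other two. Txndc5, a disulfide isomerase of the endoplasmic reticulum, rose from 82.5, 86.8 and 98.2 to 175, 168 and 175 CPM (0.94 ± 0.13 (SE), edgeR adjusted p = 7.3e-05). Edem1, which directs misfolded glycoproteins to degradation, rose by 0.47, Irf4, a transcription factor of activated lymphocytes and plasma cells, by 0.97, and Eaf2, an elongation-factor partner, by 3.02 on the log2 scale (edgeR adjusted p = 0.0048, 0.043 and 0.0046). The member that fell was Ly6c2, a surface antigen also made by T cells and monocytes, at -0.48 (edgeR adjusted p = 0.027).

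Other defining members were not called. Sdc1, the plasma cell surface marker CD138, stood at 9.38, 7.38 and 12.6 CPM at 500 cells against 3.9, 4.41 and 4.12 at 10000 (1.22, edgeR adjusted p = 0.25), and Xbp1, the factor that builds the secretory apparatus, at 89.8, 76.1 and 95.8 against 55.5, 66.4 and 62.9 (0.49, edgeR adjusted p = 0.13). Prdm1, which encodes Blimp-1, stood at 10.3, 1.55 and 4.95 CPM against 14.8, 6.62 and 12.6. Tnfrsf17, the receptor BCMA, had a count in 1 of 3 libraries of 500 cells and stood at 0.558, 1.10 and 0.588 CPM at 10000. It was too low to tell the groups apart. Of 43 genes of the wider secretory pathway of the endoplasmic reticulum 0 were called in either direction, and their median was 0.02. The summed plasma cell list, antibody genes included, took 0.386% to 0.408% of counts at 500 cells and 0.100% to 0.106% at 10000.

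Away from antibody genes, the largest rises past 10 CPM were scattered. Tmcc2, Cdkl4, Duox1, Btbd18 and Abcc12 were counted at 7.77 to 31.1 CPM at 500 cells, and their log2 fold changes were 3.17, 3.07, 2.50, 2.46 and 2.30 (edgeR adjusted p = 7.3e-05, 0.0066, 0.034, 0.016 and 0.025).

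B cell genes were higher to a smaller degree. Of 24 tested members of the B cell list 7 were higher and 0 lower, with a median of 0.59 against 0.03 for all genes. Fcmr, the Fc receptor for IgM, was counted at 49.1, 52 and 76.5 CPM at 500 cells and 24.3, 22.6 and 23.8 at 10000 (1.32 ± 0.23 (SE), edgeR adjusted p = 0.0015), without overlap. Fcrla, an Fc receptor-like protein of B cells, rose by 1.34, Ebf1, a factor that sets B cell identity, by 1.21, and Fcer2a, the IgE receptor CD23, by 0.99 (edgeR adjusted p = 0.025, 0.038 and 0.045). Ms4a1, which encodes CD20, and Ighd, the IgD constant region, each rose by 0.66 (edgeR adjusted p = 0.045 and 0.012), and Mzb1 is the remaining member. The subunits of the B cell receptor that signal into the cell were not called: Cd79a stood at 46, 53.6 and 65.7 CPM at 500 cells and 55.8, 41.6 and 35.6 at 10000, and Cd79b at 98.3, 63.7 and 59.8 and 58, 49.6 and 55.3. The list summed to 0.124% to 0.145% of counts at 500 cells and 0.104% to 0.110% at 10000, and none of its members was called when the 4 T cell inputs shared one spread, or 1 without 100-cell replicate 3.

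Class II antigen presentation moved little against 10000 cells. Of 13 members 1 was called, Cd74, the invariant chain of class II molecules, at 383, 374 and 409 CPM against 289, 299.9 and 325 (0.34 ± 0.08 (SE), edgeR adjusted p = 0.024), a call kept in 2 of 6 fits that left out a library. H2-Ab1, a class II beta chain, differed by 0.35 (edgeR adjusted p = 0.24).

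Globin transcripts of red blood cells were higher at 500 cells. Hbb-bs, an adult beta globin, stood at 62.5, 55.5 and 63.9 CPM at 500 cells, 22, 16.8 and 19.1 at 10000 and 71.1, 71.1 and 74.3 at 1000. Its log2 fold change against 10000 cells was 1.64 ± 0.23 (SE) (edgeR adjusted p = 1.1e-04), and the 500- and 1000-cell libraries lay together above the 10000-cell ones. The alpha globins Hba-a1 and Hba-a2 rose by 1.68 and 2.14 (edgeR adjusted p = 5.5e-04 and 0.0092). Their transcripts are 99.8% identical, so the division of reads between them is uncertain. Of 19 erythroid genes tested these 3 were called higher and 0 lower, with a median of 0.48, and 16 had a positive fold change. Klf1, an erythroid transcription factor of red cell precursors, had no count at 500 cells and stood at 1.67, 0.551 and 1.18 CPM at 10000. At 500 cells 3 counts make 1.17 to 1.35 CPM, so Klf1 was too low to tell the groups apart. The erythroid list summed to 0.0438% to 0.0451% of counts at 500 cells and 0.0322% to 0.0352% at 10000.

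Myeloid genes for the most part went the other way. Of 25 monocyte and macrophage genes tested 5 were lower and 1 higher at 500 cells, with a median of -0.47. The 5 include Ly6c2, described above as also made by T cells, and 7 of the 25 had a positive fold change. Of 12 neutrophil genes 2 were lower, with a median of -0.37, and 4 had a positive fold change. S100a8 and S100a9, of the neutrophil list, overlapped between the groups. Mpo, the peroxidase of granulocyte precursors and neutrophils, was counted at 4.47, 3.88 and 1.8 CPM at 500 cells and 20.1, 21.8 and 19.1 at 10000 (-2.58 ± 0.44 (SE), edgeR adjusted p = 0.0011), without overlap. Lyz2, a lysozyme of myeloid cells, stood at 5.36, 8.54 and 8.55 CPM against 24.5, 22.6 and 25 (-1.68 ± 0.35 (SE), edgeR adjusted p = 0.0072). Csf1r, the receptor that macrophages need for survival, stood at 8.04, 3.5 and 7.2 CPM against 16.2, 15.4 and 22 (-1.53 ± 0.42 (SE), edgeR adjusted p = 0.046), and Cd68, a lysosomal macrophage protein, fell by 1.98 (edgeR adjusted p = 0.030).

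The complement gene C1qb and the neutrophil elastase gene Elane rested on few counts. C1qb had 2 counts over the 3 libraries of 500 cells and 52 over those of 10000, a rate 17.2 times lower (95% counting interval 4.54 to 146). For Elane the counts were 2 and 56, a rate 18.6 times lower (4.90 to 157). At 500 cells both counts lay in 1 library, replicate 2 for C1qb and replicate 1 for Elane. The intervals cover counting error only and take each count as independent. They would be wider if both mates of a pair were counted. The macrophage scavenger receptor gene Marco was the member that rose, at 10.7, 7.77 and 4.5 CPM against 1.12, 0.276 and 0.588 (3.45 ± 0.84 (SE), edgeR adjusted p = 0.023), and DESeq2 gave it no adjusted p. The monocyte and macrophage list summed to 0.0621% to 0.0672% of counts at 500 cells and 0.0771% to 0.0793% at 10000. None of these 3 lists (erythroid, monocyte and macrophage, neutrophil) had a call when the 4 T cell inputs shared one spread. Without 100-cell replicate 3 the shared fit called 3 erythroid genes higher and again 0 of both myeloid lists. Outside the myeloid lists, the large falls past 10 CPM named by the same rule were Tacc3, a spindle protein gene, at -2.04, Capn10 at -1.78, Gpam at -1.70, Plxna3 at -1.56, the immediate early gene Egr2 at -1.48, Fbf1 at -1.30, Fut11 at -1.29 and Tmem63b at -1.28.

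**Figure D4:**
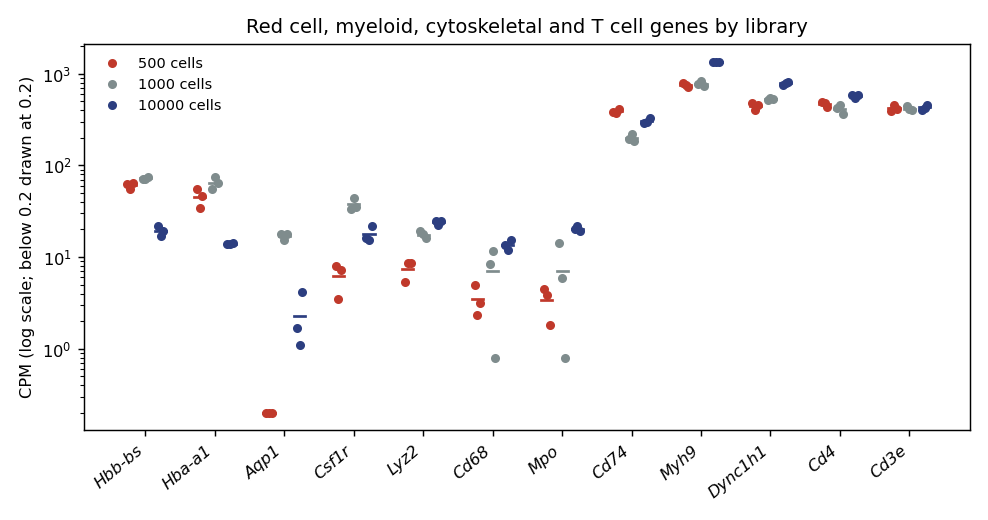
Points give the CPM of each library on a log scale, lines the mean of 3, with the colours red for 500, grey for 1000 and blue for 10000 cells, and values below 0.2 drawn at 0.2. The globins Hbb-bs and Hba-a1 are higher at 500 than at 10000 cells, Csf1r, Lyz2, Cd68 and Mpo are lower, Aqp1 has no count at 500 cells, and Cd3e overlaps between the groups.

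The genes of the T cells themselves changed little. Of 26 genes of the T cell receptor complex and its signalling 0 were higher and 4 lower, with a median of -0.09, and 5 had a positive fold change. Among all genes 7.92% were called lower at 100 to 300 CPM and 23.0% at 300 CPM or more. The list summed to 1.33% to 1.38% of counts at 500 cells and 1.46% to 1.48% at 10000. When the 4 T cell inputs shared one spread 0 of the 26 were called, or 3 without 100-cell replicate 3. Thy1, the surface marker of mouse T cells, stood at 518, 567 and 556 CPM at 500 cells against 797, 727 and 798 at 10000 (-0.51 ± 0.07 (SE), edgeR adjusted p = 4.0e-05), without overlap. Prkcq, the kinase PKC-theta downstream of the receptor, fell by 0.39 and Ptprc, which encodes CD45, by 0.20 on the log2 scale (edgeR adjusted p = 0.0038 and 0.0012). Trac, the constant region of the receptor's alpha chain, differed by 0.09 ± 0.06 (SE) (edgeR adjusted p = 0.51). Cd4, the coreceptor of helper T cells, was lower, at 489, 477 and 433 CPM against 589.8, 549 and 592 (-0.32 ± 0.07 (SE), edgeR adjusted p = 0.015) and Zbtb7b, the factor that commits cells to the CD4 lineage, fell by 0.59 (edgeR adjusted p = 0.010). Cd8a differed by -0.19 ± 0.08 (SE) (edgeR adjusted p = 0.22). Whether the changes of Cd4 and Cd8a differed from each other was not tested.

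Naive T cell genes were near their 10000-cell levels: Ccr7, which guides T cells to lymph nodes, differed by -0.10 and Tcf7, a factor of naive and memory cells, by -0.12 (edgeR adjusted p = 0.51 and 0.17). Ets1 fell by 0.34, whereas Klf2, a factor of quiescence and recirculation, rose from 722, 715 and 728 to 779, 891 and 913 CPM (0.25 ± 0.06 (SE), edgeR adjusted p = 0.036). Of 23 cytokine receptor genes 5 were lower and 0 higher. Il17ra, a subunit of the IL-17 receptor, stood at 303, 282 and 284 CPM against 431, 419 and 424 (-0.56 ± 0.08 (SE), edgeR adjusted p = 1.2e-04), and Ifngr1, Il2rb, Il2rg and Il6st fell by 0.48, 0.38, 0.35 and 0.32 on the log2 scale. Of 21 chemokine receptor and homing genes 3 were lower: Itgal, the alpha chain of the integrin LFA-1, at -0.45, Itgb7 at -0.30 and the sphingosine phosphate receptor gene S1pr4 at -0.48. Itgal and Itgb7 stood above 300 CPM, where 23.0% of all genes were called lower.

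A part of the cytoskeletal, chromatin and splicing genes was modestly lower. Well-counted genes of any kind were often called lower: 7.92% of all genes at 100 to 300 CPM and 23.0% at 300 CPM or more. The counts of these 3 lists, of the cytokine receptors, of the homing genes and of the T cell receptor list are to be read against those shares. Of 24 actin cytoskeleton genes 8 were lower and 1 higher. Myh9, the heavy chain of non-muscle myosin II, stood at 799, 747 and 714 CPM at 500 cells and 1356, 1340.3 and 1327 at 10000 (-0.84 ± 0.06 (SE), edgeR adjusted p = 2.8e-10), with a wide gap between groups, and at 781, 825 and 731 CPM at 1000 cells. Flna, an actin crosslinker, and Tln1, which ties integrins to actin, both fell by 0.39 on the log2 scale (edgeR adjusted p = 6.1e-06 and 4.1e-04). Outside the list, Dync1h1, the motor subunit of dynein, stood at 474, 399 and 451 CPM against 747, 799.7 and 804 (-0.84 ± 0.07 (SE), edgeR adjusted p = 5.6e-08). Macf1 and Plec, which link actin to other filaments, fell by 0.50 and 0.57 (edgeR adjusted p = 1.4e-07 and 6.8e-06). These last 3 genes, Notch1 and Huwe1 were chosen after their values were seen. The small actin-sequestering protein gene Tmsb4x was the member that rose, from 1618, 1639.9 and 1606 to 1912, 2036 and 1805 CPM (0.23 ± 0.05 (SE), edgeR adjusted p = 0.0052), and Actb, beta-actin, differed by 0.03 ± 0.04 (SE) (edgeR adjusted p = 0.77).

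Of 35 chromatin genes 8 were lower and 0 higher, and 2 of 35 had a positive fold change, with a median of -0.26. Chd4, an ATPase of the NuRD complex, stood at 698, 724 and 661 CPM at 500 cells against 1023, 1061 and 967 at 10000 (-0.56 ± 0.06 (SE), edgeR adjusted p = 2.7e-06). Arid1a and Arid1b, subunits of the BAF remodelling complex, fell by 0.52 and 0.76, and the acetyltransferase genes Ep300 and Crebbp by 0.49 and 0.31 (edgeR adjusted p = 2.6e-05, 0.0012, 0.0046 and 0.014). Of 32 splicing genes 7 were lower and 0 higher, with a median of -0.04. Hnrnpl, an RNA-binding regulator of CD45 splicing, stood at 103, 104 and 79.6 CPM against 210, 191 and 195 (-1.06 ± 0.13 (SE), edgeR adjusted p = 1.6e-05), and Prpf8, the core scaffold of the spliceosome, fell by 0.51 (edgeR adjusted p = 4.0e-05). Huwe1, a giant ubiquitin ligase, and Notch1, a receptor of T cell development, fell by 0.54 and 0.93 (edgeR adjusted p = 3.6e-05 and 1.1e-05). With one spread for the 4 T cell inputs 2 actin, 3 chromatin and 2 splicing genes were called lower, and without 100-cell replicate 3 these numbers were 6, 7 and 4.

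The GC content, length and level of the called genes differed from those of the rest. Over the longest coding transcript of each gene (the longest of any kind where it had none), the 337 lower genes had a median length of 4890 bases and a GC content of 53.2%, the 102 higher genes 2948 bases and 45.9%, and the genes not called 3427 bases and 49.1%. The lower genes were also better counted, with a median of 206 CPM against 21.4 for genes not called. The median log2 fold change went from 0.28 for transcripts under 40% GC to -0.13 at 55% or more. Across genes, Spearman's rho between fold change and GC was -0.25 (13661 genes, which are not independent). Lower calls made up 0.183% of transcripts under 40% GC and 4.68% at 55% or more, and 0.712% of transcripts under 1000 bases against 6.98% of those of 8000 or more. Over all these genes the fold change itself did not follow length. Spearman's rho was 0.015, and the median log2 fold change was 0.05 under 1000 bases and 0.08 at 8000 or more. Higher calls made up 3.38% and 1.23% of these 2 bins. Among the 2164 genes at a mean of 100 CPM or more, longer transcripts did tend to be lower. There rho was -0.24 with length and -0.37 with GC. A correction for length and GC in each library, added after seeing the data, left 343 calls (74 higher, 269 lower), 270 of them shared with the 439. The counts of lower genes became 7 of 24 for actin, 8 of 35 for chromatin and 8 of 32 for splicing. Of the 118 called genes named here or in the lists 82 kept their call. Among those that lost it were Cd4, Zbtb7b, Il2rb and Csf1r, with log2 fold changes of -0.26, -0.41, -0.28 and -1.42 and edgeR adjusted p from 0.053 to 0.104.

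**Figure D5:**
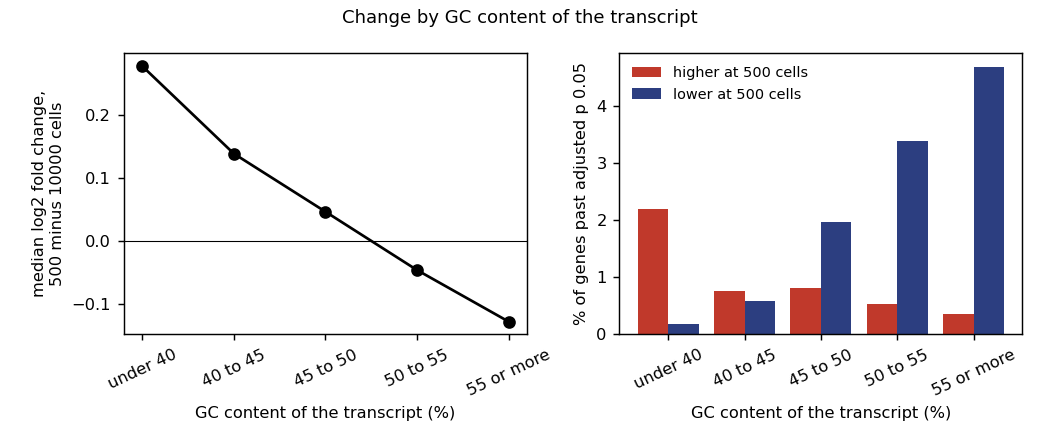
Left, the median log2 fold change (500 minus 10000 cells) of genes grouped by the GC content of their transcript. Right, the percent of each group that was higher (red) or lower (blue) at an adjusted p under 0.05. The median goes from 0.28 to -0.13 as GC rises, and lower calls from 0.183% to 4.68%.

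The most counted gene of the table was a repeat-like gene model that rose at 500 cells. Gm10800 stood at 69741, 66819 and 70913 CPM at 500 cells, 54696, 54325 and 55874 at 1000 and 36243, 37643 and 33382 at 10000, with no overlap between any 2 inputs (0.94 ± 0.03 (SE) against 10000, edgeR adjusted p = 2.4e-18). It belongs to a set of predicted genes that carry the A/T-rich repeat of mouse pericentromeric satellite DNA. Of 12 such models tested 7 were higher and 0 lower, with log2 fold changes of the called ones from 0.40 to 1.45, and the 12 took 8.38% to 8.73% of all counts at 500 cells against 4.31% to 4.96% at 10000. The set was put together after the values were seen. The first 120 bases of 3 of these transcripts (GENCODE M21, GRCm38, 5′ to 3′) show what is being counted, with capitals where a base lies in a 15-base word found in all 7 called models.
Gm10800: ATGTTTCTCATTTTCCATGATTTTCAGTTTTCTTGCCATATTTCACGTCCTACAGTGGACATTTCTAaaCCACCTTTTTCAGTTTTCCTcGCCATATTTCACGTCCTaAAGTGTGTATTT
Gm21738: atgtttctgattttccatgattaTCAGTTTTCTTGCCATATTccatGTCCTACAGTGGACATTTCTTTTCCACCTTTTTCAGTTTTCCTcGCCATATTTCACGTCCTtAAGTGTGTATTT
Gm10801: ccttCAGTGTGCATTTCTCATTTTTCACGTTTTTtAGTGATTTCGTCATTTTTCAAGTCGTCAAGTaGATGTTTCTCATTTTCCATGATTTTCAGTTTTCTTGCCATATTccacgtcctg
Words of this kind cover 83.3%, 76.8% and 64.9% of the 3 transcripts, so reads can match several models and the division among them is uncertain. Gm21738 rose by 0.79 and Gm10801 by 0.40 (edgeR adjusted p = 5.3e-08 and 1.4e-04). With the length and GC correction Gm10801 changed sign to -0.08 and was not called. Counts do not separate RNA from genomic DNA, and the part of either in these values was not tested.

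Fewer genes were detected from 500 cells at equal depth, and this depended on the minimum count. With each library thinned to 2222347 counts, 18600, 18629 and 18616 genes had a count at 500 cells and 19658, 19643 and 19536 at 10000. The means differed by -997 genes, and the exact two-sided permutation test gave p = 0.1, the smallest that 3 against 3 libraries allow. For genes with at least 5 counts the order was the opposite: 15453, 15436 and 15351 at 500 cells against 15150, 15052 and 15078.

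The comparison with 1000 cells shares the 500-cell libraries with the one above, so its values are given beside those and not as separate evidence. Of 12838 genes tested 56 (0.436%) differed, with 24 (0.187%) higher and 32 (0.249%) lower at 500 cells, and 1407 had an unadjusted p under 0.05. The antibody genes were again highest: the log2 fold change was 9.54 ± 0.15 (SE) for Igha, 8.85 ± 0.29 (SE) for Ighv1-9, 6.81 ± 0.23 (SE) for Jchain and 3.80 ± 0.09 (SE) for Igkc (edgeR adjusted p = 1.8e-36, 5.2e-25, 5.2e-25 and 9.8e-31). Txndc5 was higher by 1.07 and Mzb1 by 2.91 (edgeR adjusted p = 4.4e-05 and 0.027). Of 12 class II genes tested 3 were higher and 0 lower, with a median of 0.60: Cd74 was higher by 0.95, H2-Ab1 by 1.19 and Ciita, the class II transactivator, by 1.34 (edgeR adjusted p = 1.1e-07, 0.0011 and 0.020).

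Against 1000 cells 1 of 21 erythroid, 2 of 21 monocyte and macrophage and 1 of 14 red pulp genes tested were lower, and 0 higher. Aqp1, the water channel of red cells and endothelium, had no count in any 500-cell library, which allows up to 1.17 to 1.35 CPM in each, and stood at 17.8, 15.5 and 18 CPM at 1000 cells. Its 10000-cell libraries stood at 1.67, 1.10 and 4.12 CPM, also below every 1000-cell library. Against a floor of 3 counts over the 500-cell group Aqp1 was at least 39.9-fold lower than at 1000 cells (edgeR adjusted p = 9.8e-06). The bound is 20.0-fold if both mates of each pair were counted and the counts are halved. Against 10000 cells the bound was only 5.30-fold, with counts not halved. The complement gene C1qa likewise had no count at 500 cells. It was at least 15.5-fold lower than at 1000 cells, or 7.7-fold with counts halved, and stood at 5.58, 3.58 and 0.294 CPM at 10000. These bounds cover counting error only. Csf1r fell by 2.61 and Vcam1, an adhesion molecule of red pulp macrophages, by 1.60 on the log2 scale (edgeR adjusted p = 7.6e-05 and 0.027). The globins, in contrast to Aqp1, were not called against 1000 cells: Hbb-bs differed by -0.26 ± 0.21 (SE) and Hba-a1 by -0.53 ± 0.24 (SE) (edgeR adjusted p = 0.70 and 0.40). Of 12 genes of the mitochondrial genome 6 were lower than at 1000 cells, with a median of -0.27. Against 10000 cells 2, mt-Nd4 and mt-Nd5, were lower, with a median of -0.004. That result depended on the length and GC correction, with which 7 of 12 were lower than at 10000 and the median was -0.36. mt-Co1, a subunit of cytochrome oxidase, stood at 7419, 7079.7 and 7322 CPM at 500 cells, 8465, 8265 and 8553 at 1000 and 7224, 7424 and 6882 at 10000. Myh9, Dync1h1 and Chd4, which were lower at 500 than at 10000 cells, differed from 1000 cells by -0.06 ± 0.07 (SE), -0.27 ± 0.09 (SE) and -0.19 ± 0.07 (SE) (edgeR adjusted p = 0.83, 0.17 and 0.31).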

How the data were processed

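Whole-number read counts per gene were taken as deposited by the authors. The submitters' processing notes list HISAT2 2.1.0, featureCounts and the mm8 build, and per the labels' protocols the libraries came from oligo(dT)-primed cDNA cut with Tn5, which keeps no strand. Between 59.5% and 63.3% of nonzero counts were even, so both mates of a pair may have been counted. Each library was taken from its column name, and no library was left out. Genes passing edgeR 4.0.16's filterByExpr were fitted with TMM scaling and its quasi-likelihood test in R 4.3.3 (only the 6 libraries compared, no covariate, Benjamini-Hochberg threshold 0.05), with checks on simulated counts. Alternatives were DESeq2 1.42.0, limma 3.58.1 with quality weights, other scalings and filters, thinning, halved counts, a replicate block and leaving out libraries. Length and GC came from GENCODE M21 by symbol (99.6% of 22488 symbols). Depth was 2222347 to 3627647 counts per library.

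The text names, among called genes with groups that do not overlap and a mean CPM of 10 or more in whichever group was higher (predicted genes and small RNAs left out), the 12 largest rises and falls and the 8 most abundant each way, plus the 4 most abundant and all called members of each gene list, as far as the account needs them. Genes outside this rule are Sdc1, Xbp1, Prdm1, Tnfrsf17, Klf1, Cd79a, Cd79b, Cd3e, Ccr7, Dync1h1, Macf1, Plec, Huwe1, Notch1, Ighv1-77, S100a8, S100a9, Aqp1, C1qa, the repeat-like models and those given from 1000 cells alone. Some members of the lists are not reported here. The members and lists were chosen with earlier results of these data known.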

Additional observations from a re-analysis of the deposited data

Results flagged for a closer look

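Antibody transcripts above the 10000-cell range also appeared in a library outside the comparison, replicate 3 of the 100-cell group. Its CPM was 472 for Igha, 619.5 for Jchain, 3375 for Igkc and 773 for Ighd, each above every 10000-cell library. Replicates 1 and 2 of 100 cells stood at 5.20 and 14.1 CPM for Igha, also above the 10000-cell maximum of 4.41, and at 3.64 and 19.5 for Jchain, where replicate 2 was above the maximum of 6.69. For Igkc they stood at 46.3 and 74.1, below the 10000-cell libraries. Replicate 3 stood apart in other cell types too. B cell genes took 0.709% of its counts, against 0.0750% and 0.0873% in the other two, and class II genes 0.706% against 0.0498% and 0.0543%. Neutrophil genes took 0.243% against 0.00546% and 0.00784%, erythroid genes 0.213% against 0.0250% and 0.0242%, and genes of the T cell receptor complex 0.968% against 1.31% and 1.35%. This library enters the fit in which the 4 T cell inputs shared one spread. The variable genes of that library were spread widely, unlike those of the 500-cell libraries: 82 of 113 heavy chain variable genes had a count among 2980 counts, and the most counted held 6.71%. Ighv1-9 was not absent at 100 cells. It held 6.01% of heavy chain variable counts in replicate 3, 7.54% in replicate 2 and 16.7% of 162 counts in replicate 1. At 1000 cells it held 0.741% to 1.68%, and at 10000 cells 0% to 2.5%. The source of these counts was not tested.

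The change from 10000 cells differed between the 500- and the 1000-cell groups for the 56 genes called in the test of 500 against 1000 cells. Csf1r and Cd74 are given here as examples whose 500- and 1000-cell libraries lay on opposite sides of the 10000-cell ones. They were chosen by name, and others of the 56, such as Ciita, H2-Ab1 and Aqp1, met the same condition. Csf1r was lower at 500 than at 1000 cells by a log2 fold change of -2.61 (edgeR adjusted p = 7.6e-05), and its 1000-cell libraries lay above the 10000-cell ones. Cd74 was higher at 500 than at 1000 cells by 0.95 (edgeR adjusted p = 1.1e-07), and its 1000-cell libraries lay below the 10000-cell ones.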

How the results depend on the processing

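The 439 calls between 500 and 10000 cells became 575 with DESeq2 (430 shared), 557 with limma's quality weights (416), 602 without the filter on low counts (419), 530 with counts halved (423) and 387 to 423 under 2 other scalings and thinning, 485 to 505 without a 500-cell library (335 to 337 shared), 149 to 173 without a 10000-cell library (all shared) and 30 when the 4 T cell inputs shared one spread. Same-numbered libraries did not deviate together (residual correlations -0.02 to 0.00, and -0.01 to 0.02 for differently numbered ones). The spread between replicates could hide a shared origin, so this check cannot exclude a pairing. With a replicate block there were 496 calls, or 405 with the length and GC correction added. Among alternatives added after seeing the data, leaving out repeat-like genes gave 433 calls, the length and GC correction 343 and the shared spread without 100-cell replicate 3 169. The fold change of Gm10801 turned to -0.080 with that correction and to -0.084 with it and the block, and no other called gene named reversed under any alternative run.

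Between 500 and 1000 cells the 56 calls became 118 with DESeq2, 132 without the filter, 93 with the replicate block, 120 with counts halved, 105 with limma's quality weights and 23 to 55 when a library was left out. The difference in genes detected was -997 at 1 count, -239 at 2 and 320 at 5, and -1035.5 to -974.5 without single libraries. Depth limits low genes: 3 counts correspond to 0.827 to 1.35 CPM. The causes of these shifts were not tested.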

Other observations

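Several gene groups not described above held few calls. Of 33 cell cycle genes 4 were lower at 500 than at 10000 cells and 0 higher, with a median of -0.23: the helicase genes Mcm2 (-0.63) and Mcm3 (-0.61), Mki67, the proliferation marker Ki-67 (-0.57), and Tacc3, a spindle protein (-2.04). Tacc3 stood at 8.04, 3.50 and 6.30 CPM at 500 cells against 22.3, 21.8 and 28.5 at 10000. Of 10 heat shock genes 3 were lower: Hsp90ab1 (-0.26), Hspa8 (-0.18) and the cochaperone gene Dnajb1 (-0.60). Among all genes tested 2.46% were called lower, but 7.92% at 100 to 300 CPM and 23.0% at 300 CPM or more. Of 82 cytosolic ribosomal protein genes 2 were higher, Rps3a1 (0.19) and Rpl14 (0.29), and 0 lower. Eef2 and Eef1a1, elongation factors of translation, were lower by -0.34 and -0.09. Of 78 nuclear genes of oxidative phosphorylation 0 were called, and their median was 0.01.

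Genes of other tissues were higher at 500 cells in their medians, with few calls. Of 1462 olfactory and vomeronasal receptor genes 427 passed the filter on low counts. Their median log2 fold change was 0.46, with 2 higher and 0 lower. A gene can pass that filter through 1 group alone, so this median is not a test of a rise. All 1462 took 0.441% to 0.481% of counts at 500 cells and 0.328% to 0.349% at 10000. At equal depth 75.5% to 76.7% of them had a count at 500 cells, fewer than the 83.7% to 85.0% at 10000. Over 39 collagen genes the median was 0.55, with 0 called. Genes under a mean of 10 CPM had a median of 0.30 in all. Lars2, a mitochondrial leucyl-tRNA synthetase gene, stood at 12045, 13524 and 13378 CPM at 500 cells, 14638, 17046 and 17263 at 1000 and 15855, 17606 and 14985 at 10000. It was lower than either (-0.34 and -0.33; edgeR adjusted p = 8.5e-09 and 2.0e-05). The immediate early genes Nr4a1 and Nr4a3, which T cells induce on receptor signalling, were higher than at 1000 cells by 0.83 and 1.65 (edgeR adjusted p = 0.042 and 0.027).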
